A study of Rattus norvegicus with 2 samples.

Results

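Macrophage marker genes were compared between skin irradiated with 45 Gy and skin that was not. The genes were 10 that macrophages are commonly recognised by, namely Cd68, Cd163, Mrc1, Csf1r, Adgre1, Lyz2, Cd14, Lgals3, Aif1 and Tyrobp, out of 22312 genes in the deposited table. By symbol 8 of them were found. The other 2 were reached through synonyms, Adgre1 as Emr1, its older name, and Lyz2 through rows named Lyc2 that list it as a synonym, and their values are given as Adgre1 and Lyz2. The study concerned fibrosis of rat skin after radiation. Male Sprague-Dawley rats aged 4 weeks had received 1 dose of 45 Gy from an electron beam on a treated area. The irradiated group was 1 library from that area, and the control group was 1 library from a skin area outside the beam, also of male Sprague-Dawley rats of 4 weeks. The libraries held an estimated 11197446 reads (irradiated) and 12649576 reads (control) on protein-coding genes, of which 2698 and 2668 lay on the 10 genes. No transgene, drug or other agent is named for either group. The labels give neither the time between irradiation and sampling nor the number of animals behind a library. The irradiated library carries the title NC, which is not spelled out, so its group rests on the source label alone, and every direction below would turn round if that label were exchanged.

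Macrophages are phagocytes of the innate immune system. Those of the dermis take up debris and dying cells, present antigen and take part in wound repair and scarring. Their survival depends on the receptor CSF1R, which binds the cytokines CSF1 and IL-34, and many of their activating receptors signal through the adaptor TYROBP. Resident macrophages of connective tissue commonly carry the scavenger receptor CD163 and the mannose receptor MRC1. Other cells make some of these proteins too: keratinocytes and fibroblasts contain galectin 3, the product of Lgals3, and neutrophils contain lysozyme. In whole skin, fewer cells of a type and less RNA per cell cannot be told apart. Both libraries also held much skeletal muscle RNA, as given below, so macrophages of skin and of muscle cannot be told apart either.

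The macrophage marker genes differed little between the libraries. None of the 10 was 2-fold higher or lower in irradiated skin. Of all 9743 genes tested, 9.70% were higher by 2-fold or more, 1.53% were lower by as much and 88.8% lay within 2-fold, so that a small difference was also the common one. Lgals3 had the highest ratio at 1.39-fold higher FPKM (reads per transcript length and library size) in irradiated skin, and Mrc1 the lowest at 0.785 of the non-irradiated level. Tested means that the average of both libraries was 1 FPKM or more, and all 10 macrophage marker genes exceeded 1 FPKM in each library. Their log2 ratios, irradiated over non-irradiated after adding 1 FPKM to each level, ran from -0.26 to 0.46 with a median of 0.059, beside a median of 0.21 over all genes tested. The middle range of all genes, between the 25th and 75th percentiles, spanned -0.088 to 0.56. With 1 library a group there was no test of the condition, and the 95% intervals given below (exact Clopper-Pearson, on the log2 ratio of scaled counts) cover counting error only.

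The median log2 ratio of all genes was above 0, and the sign of several macrophage marker genes turned with the scaling. Lgals3 and Cd68 kept a positive ratio and Mrc1, Csf1r and Cd163 a negative one under all alternatives that kept the gene. Aif1 and Adgre1 turned negative when the median ratio was set to 0 or a trimmed mean was used for scaling, Lyz2 turned with the trimmed mean to -0.00054, and Cd14 and Tyrobp turned with both of these and without the 100 highest genes. Tyrobp also turned negative in scaled counts.

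**Figure D1:**
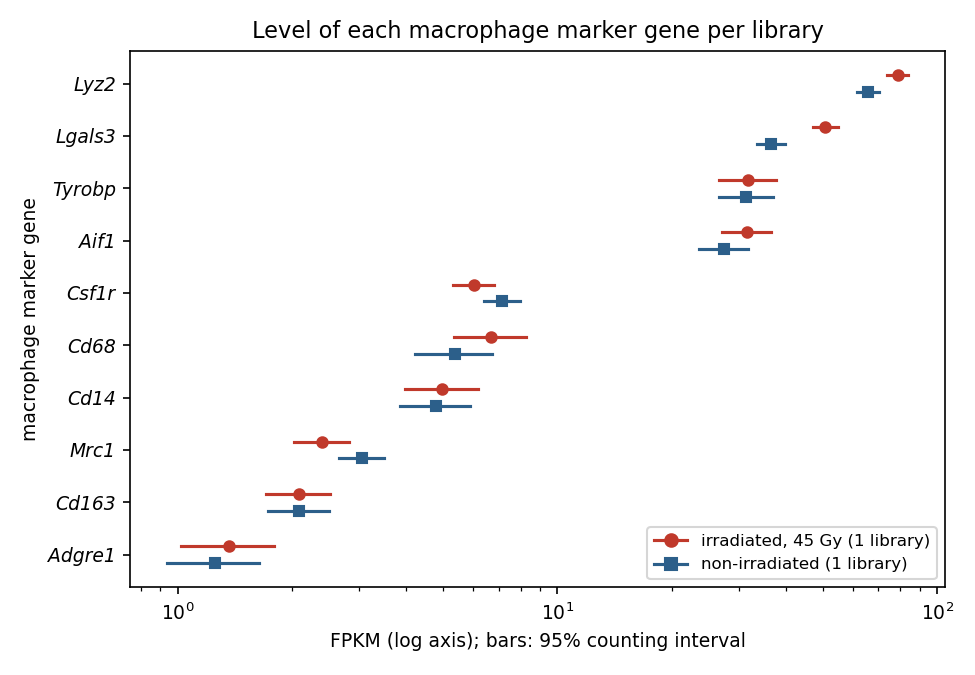
FPKM on a log axis for each macrophage marker gene, with the irradiated library as circles, the non-irradiated library as squares and 95% exact Poisson counting intervals as bars (1 library each). The levels run from about 1.25 FPKM for Adgre1 to 78.6 FPKM for Lyz2, and the bars of the libraries overlap for 8 of the 10 genes, Lyz2 and Lgals3 being the exceptions.

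**Figure D2:**
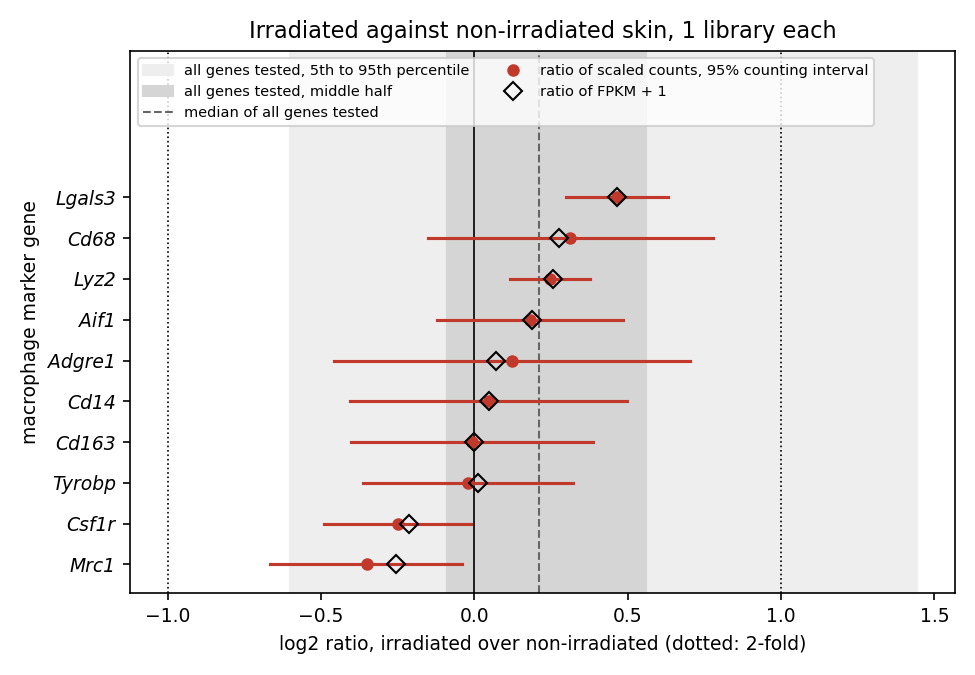
Log2 ratio of irradiated over non-irradiated skin for each macrophage marker gene: circles with bars give the ratio of scaled counts with its 95% counting interval, diamonds the ratio of FPKM + 1. Grey bands show the spread of the 9743 genes tested, whose median of 0.21 is dashed, and every marker lies inside the dotted 2-fold lines.

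Promoter windows of 4 of the genes are shown because the lineage factor PU.1, which acts at many myeloid promoters, recognises a purine-rich core, and because they include the pair with the lowest ratios (Mrc1, Csf1r) and a pair with ratios above 0 (Cd68, Cd14). The windows are the 250 bases before the gene start as RefSeq places it on GRCr8, and capitals mark GAGGAA or, for the other strand, TTCCTC.
Mrc1 (GRCr8 chr17:82157475-82157724, plus strand): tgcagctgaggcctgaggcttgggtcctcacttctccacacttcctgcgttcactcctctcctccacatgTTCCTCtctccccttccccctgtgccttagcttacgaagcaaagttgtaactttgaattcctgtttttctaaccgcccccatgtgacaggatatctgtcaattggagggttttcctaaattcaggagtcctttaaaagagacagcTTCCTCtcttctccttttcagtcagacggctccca
Csf1r (GRCr8 chr18:56834129-56834378, plus strand): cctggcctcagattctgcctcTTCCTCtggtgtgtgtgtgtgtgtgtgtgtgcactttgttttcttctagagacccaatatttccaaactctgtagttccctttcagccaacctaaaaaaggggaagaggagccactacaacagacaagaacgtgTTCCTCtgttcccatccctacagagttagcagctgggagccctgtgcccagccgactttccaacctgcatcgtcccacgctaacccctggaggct
Cd68 (GRCr8 chr10:54882442-54882691, minus strand): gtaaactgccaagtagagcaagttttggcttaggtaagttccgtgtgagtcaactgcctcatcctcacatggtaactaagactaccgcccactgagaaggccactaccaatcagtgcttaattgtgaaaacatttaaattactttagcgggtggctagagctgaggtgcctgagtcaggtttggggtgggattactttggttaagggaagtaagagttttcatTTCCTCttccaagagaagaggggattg
Cd14 (GRCr8 chr18:28611159-28611408, minus strand): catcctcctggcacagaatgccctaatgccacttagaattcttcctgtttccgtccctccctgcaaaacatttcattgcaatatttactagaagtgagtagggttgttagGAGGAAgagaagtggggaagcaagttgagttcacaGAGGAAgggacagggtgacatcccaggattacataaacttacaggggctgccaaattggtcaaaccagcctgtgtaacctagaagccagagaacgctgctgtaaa
Of the 10 genes, 7 had a promoter in the RefSeq table, all but Aif1, Lgals3 and Tyrobp. GAGGAA was searched on both strands from 250 bases before to 50 after the start and was present in 6 of these 7 promoters, Cd163 being the one without. The promoters shown held 2 matches each, and Adgre1 and Lyz2, not shown, held 1 each. Those shown are thus the ones with the most matches and do not stand for the rest. The same 6 letters occurred in 27.6% of all 33469 rat promoters of that length. The match nearest to the start among the windows shown began 27 bases before it in Cd68, and a second Cd68 match lay after the start, outside the printed window. TATAAA, searched on both strands, was in none of the 7 and in 14.2% of all promoters, and CANNTG, which reads the same on both strands, was in 5 of 7 and in 72.1%. These matches describe letters and not bound sites.

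Csf1r (ENSRNOG00000018414, chromosome 18, 55662899 to 55689297, plus strand, in the deposited coordinates, whose build is not given) encodes the receptor tyrosine kinase that keeps macrophages alive. It stood at 6.02 FPKM in irradiated and 7.14 FPKM in non-irradiated skin, on 254 and 335 estimated reads. Its log2 ratio was -0.21, and the interval ran from -0.49 to -0.011. Irradiated skin was thus the lower library, with an upper bound close to equality. Of its ligands, Il34 stood at 2.51 against 5.46 FPKM on 42 against 102 reads, and Csf1 at 1.21 against 1.38 FPKM. Without the added 1 FPKM the irradiated level of Il34 was 0.459 of the other; with it the log2 ratio was -0.88, within 2-fold, and 4 of 7 alternative settings placed it beyond. The interval on scaled counts was -1.69 to -0.60. Csf2ra, a chain of the receptor for GM-CSF, was nearly equal at 4.33 and 4.40 FPKM. Csf2 and Csf3, which encode cytokines for granulocytes and macrophages, had no reads in either library. The 3 tested genes of this ligand and receptor list lay within 2-fold, with a median of -0.10.

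Tyrobp (ENSRNOG00000020845, chromosome 1, 90031116 to 90034967, plus strand) encodes the membrane adaptor that passes signals of activating receptors to the kinase SYK. Its levels were almost the same, 31.7 FPKM in irradiated and 31.5 FPKM in non-irradiated skin on 136 and 153 reads. The log2 ratio was 0.012 and the interval ran from -0.36 to 0.32. Fcer1g, a related adaptor of Fc receptors, stood at 33.0 against 28.0 FPKM. Trem2, a lipid-sensing receptor that pairs with TYROBP, stood at 1.89 against 3.01 FPKM on 23 against 41 reads, and its interval of -1.49 to 0.086 included equality. Lyn, a SRC-family kinase, had a log2 ratio of 0.55 (1.02 with a pseudocount of 0.1 FPKM) and Sirpa, an inhibitory receptor that binds CD47, 0.40. All 6 tested genes of the 16 on this list lay within 2-fold, with a median of 0.13 that turned to -0.076 when the median of all genes was set to 0. Trem1, a receptor of neutrophils and monocytes, had no reads in either library. Others below the level for testing were higher in irradiated skin: Syk had 25 against 11 reads (interval 0.26 to 2.50), Plcg2 27 against 4 (1.38 to 4.88) and Siglec1 64 against 47 (0.029 to 1.17). Btk was lower at 1 against 13 (-8.96 to -0.82). The intervals of the rest of the untested genes with reads included equality. Syk, Plcg2, Siglec1 and Btk are named after their values were seen.

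Cd163 (ENSRNOG00000010253, chromosome 4, 223769350 to 223802725, plus strand) encodes the receptor that clears complexes of haemoglobin with haptoglobin. It stood at 2.08 FPKM in irradiated and 2.09 FPKM in non-irradiated skin on 105 and 117 reads. The log2 ratio was -0.0029, and the interval of -0.40 to 0.39 left differences of up to about 0.39 in either direction undetectable at this depth. Mrc1 (ENSRNOG00000018251, chromosome 17, 83099573 to 83180475, plus strand), the mannose receptor, was lower at 2.40 against 3.06 FPKM on 147 against 208 reads. Its log2 ratio was -0.26, and the interval ran from -0.67 to -0.040. Both genes lay among the less abundant macrophage markers in each library.

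The genes Hp and Hpx, whose proteins bind haemoglobin and haem, stood apart from Cd163 and Mrc1. Hp, which encodes haptoglobin, stood at 22.9 FPKM in irradiated and 1.61 FPKM in non-irradiated skin on 305 against 24 reads. Its log2 ratio was 3.19 after adding 1 FPKM and 3.82 in scaled counts, the latter with a counting interval of 3.22 to 4.48. Hpx, which encodes the haem carrier haemopexin, stood at 9.79 against 0.0526 FPKM on 167 reads against 1, and the interval ran from 5.03 to 12.84. The ferritin genes Fth1 and Ftl1, which store iron, were near equality, Fth1 at 1820 against 2052 FPKM and Ftl1 at 309.9 against 275 FPKM. Hp and Hpx were the members of the scavenging and haem iron list beyond 2-fold, and the other 7 tested genes lay within it. Cd36, a scavenger receptor for lipids, was among these 7 but lay beyond 2-fold, lower in irradiated skin, under 4 alternative settings, with a pseudocount of 0.1 FPKM among them. The list's median was -0.17 and turned to 0.17 with a mean of at least 5 FPKM. Keratinocyte markers were higher in the same library, 10 of 10 tested with a summed level of 3403 against 218 FPKM, and their part in the levels of Hp and Hpx was not tested.

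Genes that mark resident or alternatively activated macrophages also lay mostly within 2-fold, some near equality and some not. Folr2, a folate receptor of resident macrophages, stood at 16.04 against 17.08 FPKM, Clec10a, a galactose-binding lectin, at 18.9 against 20.0 FPKM, and Gas6, a ligand that bridges dying cells to phagocytes, at 40.9 against 41.5 FPKM. Others had counting intervals that excluded equality, in both directions. Pf4, a chemokine also made by platelets, had a log2 ratio of 0.75 (interval 0.16 to 1.26) and Il4r 0.53 (0.34 to 0.91). Ccl24, an eosinophil attractant, had -0.52 (-0.89 to -0.27) and Lyve1, also on this list, -0.47 (-0.99 to -0.25). Of 17 genes found from this list 11 were tested, 10 of them inside the 2-fold range; the median was -0.021. Ccl17 was the remaining one at 5 reads against 0, which is at least 1.85-fold higher in scaled counts against a floor of 3 reads and so does not secure a 2-fold difference. Arg1, an arginase of alternative activation, stood at 1.72 against 1.43 FPKM, and Retnla and Chil3 had no reads in either library. Clec10a, Folr2, Ccl24, Il4r and Arg1 are named after their values were seen.

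Lgals3 (ENSRNOG00000010645, chromosome 15, 28094061 to 28106276, plus strand) encodes galectin 3, a lectin secreted by macrophages and also made by epithelia. It had the highest ratio of the macrophage marker genes, at 50.8 FPKM in irradiated and 36.5 FPKM in non-irradiated skin on 662 against 532 reads. The log2 ratio was 0.46, or 0.26 above the median of all genes, and 69.2% of the genes tested had a lower ratio. The counting interval was 0.30 to 0.63. Among its relatives Lgals1, abundant in connective tissue, stood at 1588 against 1434 FPKM and Lgals9 at 6.90 against 3.42 FPKM (log2 ratio 0.84). Lgals7, a galectin of stratified epithelium, was the single one of 5 tested galectin-list genes beyond 2-fold, at 1884 against 125 FPKM. The list also holds Lgals3bp, a protein that binds galectin 3, with a log2 ratio of 0.49. Keratinocyte markers moved in the same direction as Lgals3, and their part in its ratio was not tested.

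Lyz2 encodes lysozyme, an enzyme that cleaves bacterial cell walls, and was the most abundant of the macrophage marker genes. Summed over its pair of rows it stood at 78.6 FPKM in irradiated and 65.7 FPKM in non-irradiated skin on 990 against 925 reads, a log2 ratio of 0.25 (interval 0.12 to 0.38). Nearly all of it lay in 1 row (ENSRNOG00000005825, chromosome 7, 60337950 to 60343246, minus strand) with 985 and 922 reads. The second row (ENSRNOG00000034139, chromosome 7, 60318026 to 60325591, plus strand) held 5 and 3 reads. Both rows carry the symbol Lyc2 and the synonym Lyz2, RefSeq holds a gene of each name side by side, and how reads of near-identical copies were divided is not stated, so the split is uncertain. Of the neutrophil markers, whose cells also contain lysozyme, S100a8, S100a9 and Lcn2 were higher in irradiated skin, with S100a8 at 173 against 7.78 FPKM. Mpo, Elane, Cxcr2 and Ltf had no reads in either library, Csf3r had 0 against 2 and Camp 2 against 0. The summed level of the list was 272 against 16.9 FPKM, mostly S100a8 and S100a9. Keratinocyte markers were also higher in the irradiated library, and their part in these levels was not tested.

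Cd68 (ENSRNOG00000037563, chromosome 10, 56014364 to 56016243, minus strand) encodes a glycoprotein of the lysosome membrane. It stood at 6.70 FPKM in irradiated and 5.36 FPKM in non-irradiated skin on 85 against 76 reads. The log2 ratio was 0.28, and the interval of -0.15 to 0.78 included equality. Of 21 tested genes of lysosome and phagosome, 20 lay within 2-fold. Acp5, the tartrate-resistant acid phosphatase of osteoclasts and some macrophages, was the exception at 5.09 against 0.570 FPKM on 80 against 10 reads (log2 ratio 1.96). Gpnmb, a glycoprotein of lipid-laden macrophages and of pigment cells, had a log2 ratio of 0.79. Psap, which encodes the activators of lysosomal lipid breakdown, went the other way at 245 against 389 FPKM (log2 ratio -0.66), and Cd63 was nearly equal at 374 and 361 FPKM. The list's median of 0.16 turned negative, to -0.050, when the median of all genes was set to 0.

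Cd14 (ENSRNOG00000017819, chromosome 18, 29265352 to 29266946, minus strand) encodes the coreceptor that hands lipopolysaccharide to TLR4. It stood at 4.97 FPKM in irradiated and 4.79 FPKM in non-irradiated skin on 82 against 88 reads, a log2 ratio of 0.046 (interval -0.40 to 0.50). Downstream, Irak1, a kinase of Toll-like receptor signalling, stood at 14.2 against 7.76 FPKM on 521 against 317 reads (log2 ratio 0.79), and the adaptor gene Myd88 at 3.33 against 2.04 FPKM. Ly96, the partner of TLR4 that binds lipopolysaccharide, rested on 5 against 3 reads. All 5 tested genes of this list lay within 2-fold, with a median of 0.51. Tlr4 itself had 14 against 10 reads and was below the level for testing. Also below it, Lbp had 20 against 5 reads (interval 0.69 to 3.92), Tirap 10 against 0 (lower bound 1.31) and Cd180 6 against 0 (lower bound 0.38). Tirap lay beyond 2-fold with no filter on low values. Ticam2 went the other way at 12 against 18 reads, and its interval included equality. Lbp, Tirap, Cd180 and Ticam2 are named after their values were seen.

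Aif1 (ENSRNOG00000000853, chromosome 20, 7234608 to 7239707, minus strand) encodes IBA1, an actin-binding protein of macrophages. It stood at 31.5 FPKM in irradiated and 27.5 FPKM in non-irradiated skin on 185 against 181 reads, a log2 ratio of 0.19 (interval -0.12 to 0.48). Adgre1 (listed as Emr1, ENSRNOG00000046254, chromosome 9, 8434334 to 8593090, minus strand) encodes an adhesion receptor that is a standard macrophage marker in the mouse. It was the least abundant of the macrophage marker genes, at 1.37 FPKM in irradiated and 1.25 FPKM in non-irradiated skin on 52 against 53 reads. Its log2 ratio was 0.071, and the interval ran from -0.46 to 0.70. Neither gene differed beyond counting error. The Emr1 row was matched to Adgre1 by name alone and carries no NCBI gene number. It lies on the minus strand, whereas RefSeq places Adgre1 on the plus strand of chromosome 9 in GRCr8, so the match is uncertain.

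The order of the levels was almost the same in both libraries. Non-irradiated skin ran from Lyz2 through Lgals3, Tyrobp, Aif1, Csf1r, Cd68, Cd14, Mrc1 and Cd163 to Adgre1, and irradiated skin differed in this order by the exchange of Csf1r and Cd68. By 95% exact Poisson intervals, neighbours whose levels overlapped in non-irradiated skin were Lgals3 with Tyrobp, Tyrobp with Aif1, Csf1r with Cd68 and Cd68 with Cd14. In irradiated skin they were Tyrobp with Aif1, Cd68 with Csf1r, Csf1r with Cd14, Mrc1 with Cd163 and Cd163 with Adgre1. Together the 10 genes summed to 216 FPKM in irradiated and 185 FPKM in non-irradiated skin. Lgals3 made up 23.5% of that sum against 19.7%, Tyrobp 14.7% against 17.0%, and Lyz2 36.4% against 35.6%.

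Pairs of macrophage marker genes within a library do not depend on the scaling between libraries. The FPKM of Mrc1 relative to Cd68 was 0.358 in irradiated and 0.571 in non-irradiated skin. The log2 ratio of these in reads was -0.66, with a 95% conditional exact interval of -1.23 to -0.096. Csf1r relative to Cd68 was 0.898 against 1.33, with an interval of -1.09 to -0.034. Cd163 relative to Cd68 was 0.311 against 0.390, and its interval of -0.93 to 0.30 included equality. Lgals3 relative to Mrc1 was 21.1 against 11.9, with an interval of 0.46 to 1.17. Of 13 pairs computed 8 had an interval that included equality and 5 did not. The 4 given here were picked with the values known, the last joins the highest with the lowest ratio of the 10 genes, and the pairs share genes.

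Most other tested genes of macrophage identity also differed by less than 2-fold. Of 23 genes found 13 were tested. This held for 11 of the 13, with a median of 0.089 that turned to -0.12 when the median of all genes was set to 0. The complement genes C1qa, C1qb and C1qc, made largely by macrophages, stood at 108 against 118, 50.6 against 47.9 and 59.2 against 62.3 FPKM. Spi1, which encodes PU.1, stood at 5.12 against 3.90 FPKM on 74 against 63 reads, and the interval ran from -0.12 to 0.89. Apoe, an apolipoprotein made by macrophages and many other cells, was higher at 1206 against 459 FPKM (log2 ratio 1.39). Lst1, a leukocyte membrane protein, was the other gene beyond 2-fold, at 14 against 6 reads, and its interval of -0.099 to 3.04 included equality. Of those below the level for testing, Mpeg1 had 16 against 3 reads (interval 0.76 to 4.99) and Fcgr3a 9 against 1 (0.47 to 8.77). Ms4a7 at 10 against 19 reads, Itgam at 11 against 17 and Msr1 at 8 against 13 went the other way. The intervals of Ms4a7, Itgam and Msr1 included equality. Over the 8 lists of macrophage function, 6 of 72 tested genes, or 8.33%, were higher by 2-fold or more and 0 lower by as much, beside 9.70% and 1.53% of all genes. With a pseudocount of 0.1 FPKM the counts were 8 and 2 of 72, the lower genes being Il34 and Cd36. All genes then gave 1562 higher and 252 lower of 9743. Without the 100 highest genes the counts were 13 and 2 of 90, beside 2021 and 420 of 12135 over all genes. C1qb, C1qc, Spi1, Cd36, Mpeg1, Fcgr3a, Ms4a7, Itgam and Msr1 are named after their values were seen.

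**Figure D3:**
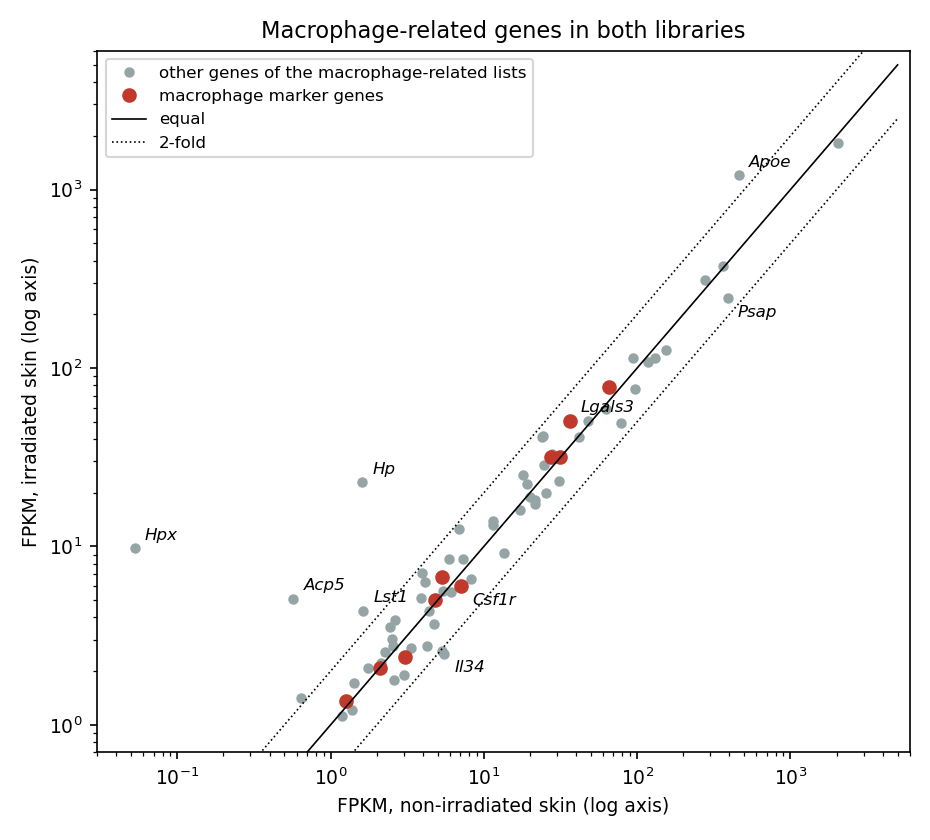
FPKM in irradiated against non-irradiated skin on log axes for the macrophage marker genes (red) and the tested genes of 6 macrophage-related lists with reads in both libraries (grey), 1 point per gene. The red points follow the line of equality, Hp, Hpx, Acp5, Apoe, Lst1 and Lyn lie above the upper dotted 2-fold line, and Il34 and Cd36 lie just below the lower one, since no pseudocount is added here.

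Few genes of inflammatory activation reached the level for testing. Of 15 found, 4 were tested, none beyond 2-fold, and their median was 0.42. Irf5, a factor of inflammatory macrophages, stood at 2.47 against 1.35 FPKM, and Il18, a cytokine also made by keratinocytes, at 2.73 against 0.943 FPKM on 18 against 7 reads. Il18 lay beyond 2-fold under 2 of 7 alternative settings. Ccl2, which attracts monocytes, stood at 3.21 against 4.17 FPKM on 24 against 35 reads. Nos2, Il6 and Il12b had no reads in either library, Tnf had 3 and 4 reads and Il1b 4 and 3, so differences in these genes were not detectable at this depth.

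Genes shared by leukocytes in general differed little as well. All 10 tested of 11 lay within 2-fold, with a median of -0.023 that was 0.022 with no filter on low values, but for Rac2 this depends on the setting. Cd74, the invariant chain of antigen presentation, stood at 110 against 115 FPKM, Cd48 at 8.80 against 11.3 FPKM and Lcp1, an actin-bundling protein of leukocytes, at 4.42 against 2.57 FPKM. Rac2, a leukocyte GTPase, stood at 1.54 against 3.75 FPKM on 22 against 60 reads. Its irradiated level was 0.409 of the other, its log2 ratio with the added 1 FPKM -0.91, and its counting interval -2.07 to -0.57. It lay beyond 2-fold, lower in irradiated skin, under 5 of 7 alternative settings, with a pseudocount of 0.1 FPKM among them. Ptprc, which encodes the leukocyte antigen CD45, rested on 74 against 80 reads. The tissue itself differed more than the macrophage marker genes did: the keratinocyte list had a median log2 ratio of 3.48, the fibroblast list -0.57 and the endothelial list -0.58. Both libraries also held much skeletal muscle RNA, with Mylpf, a light chain of fast myosin, at 92922 and 81247 FPKM. The muscle list summed to 253767 of 1017836 FPKM in the irradiated library and 276351 of 1002194 FPKM in the non-irradiated one. Its single genes were less alike than the sums. Of the 10 tested, 2 were higher in irradiated skin by 2-fold or more and 8 lay within 2-fold, with log2 ratios from -0.84 to 1.37. Krt14, a keratin that defines basal epidermis, stood at 12.0 FPKM in the non-irradiated library against 618 FPKM in the irradiated one. How the makeup of the samples bears on the macrophage marker genes was not tested.

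**Figure D4:**
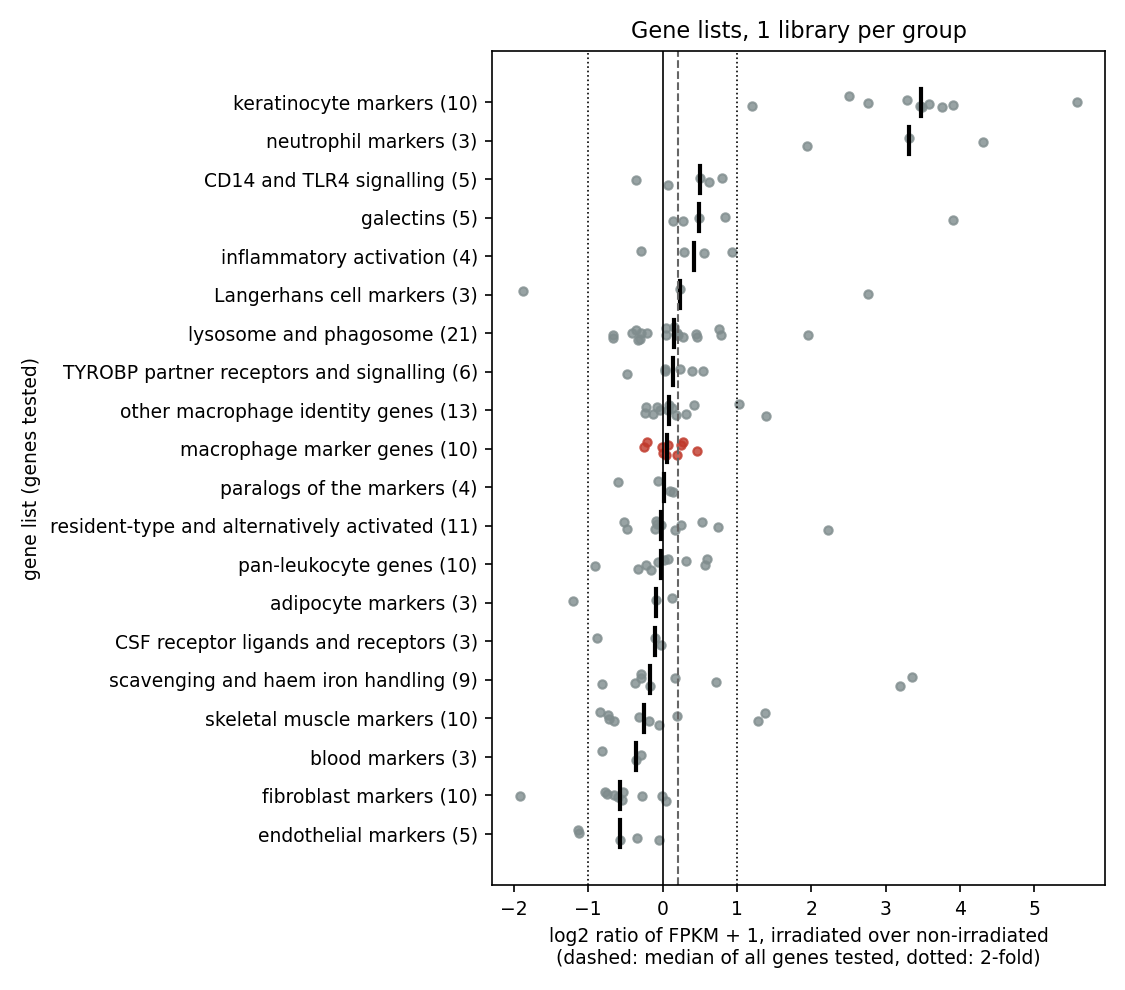
Log2 ratio of FPKM + 1, irradiated over non-irradiated, for each tested gene (points) of every list with at least 3 tested genes, with the list median as a bar and the number tested in brackets. The macrophage marker genes (red) sit between -0.26 and 0.46, while the keratinocyte list has its median at 3.48.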

How the data were processed

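RNA was measured in 1 library of irradiated and 1 library of non-irradiated rat skin. Per the labels' protocols, RNA was extracted with TRIzol, freed of ribosomal RNA and made into stranded total RNA libraries. Cufflinks, Cuffdiff, HISAT2 2.0.4 and cutadapt 1.9.3 appear in the submitters' processing notes with no roles; the sources used here do not give genome build, annotation, strand setting or the handling of shared reads. Per the file headers, the authors deposited FPKM values, which compare levels between genes per length. The columns the authors deposited as counts are a signal scaled per library: 97.7% and 98.0% of values above 0 were whole multiples (within 0.01 read plus 1e-05 per read) of 1.05 and 0.951, and division by these steps gave 11197446 and 12649576 estimated reads. Without replicates no count model was run. Columns were matched to libraries by title, groups came from the source label, and 0 per-sample columns were left unused.

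Rows sharing a symbol were summed to 22312 genes, of which 9743 (43.7%) had a mean of at least 1 FPKM. Ratios used a pseudocount of 1 FPKM and so understate differences of low genes. A difference meant 2-fold. The members and 24 further lists (268 genes in all, of which 9 were not found, 253 were found by symbol, 3 by a table synonym, 3 by a RefSeq synonym, assembly GRCr8) were chosen with earlier results of these data known. All 10 markers were named, and from each list the 2 largest absolute ratios, the 2 highest means and, where at most 4, all genes beyond 2-fold; a few others are marked. Not every gene this names is described, and 1 is not reported here, though it is counted in its list. Likeness of pattern cannot be measured over 2 libraries. The steps were tested on simulated data (Python 3.11.15, scipy 1.17.1). Intervals are 95%; PCR copies are not independent molecules, so counting error may be understated. The 8 alternative settings and 1 added after seeing the data are in the closing section.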

Additional observations from a re-analysis of the deposited data

How the results depend on the processing

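The count of macrophage marker genes beyond 2-fold was 0 higher and 0 lower under all 8 alternative settings fixed at the start and, in an alternative chosen after seeing the data, over the 8 markers found by their own symbol. Some markers were not tested with a mean of at least 5 FPKM. Their median log2 ratio ranged from -0.15 with the median of all genes set to 0 to 0.22 with a mean of at least 5 FPKM; it was -0.12 with the trimmed mean, -0.016 without the 100 highest genes and 0.029 over the 8. The counts over all genes moved more: 1562 higher and 252 lower with a pseudocount of 0.1 FPKM, 321 and 84 with a mean of at least 5 FPKM, and 2021 and 420 without the 100 highest genes. Lower genes numbered 266 with the median set to 0 and 272 with the trimmed mean, with 674 and 699 higher, and higher genes then made up 71.7% and 72.0% of those beyond 2-fold in place of 86.4%. The cause of these moves beyond the settings' own construction was not tested. No paired analysis was possible because each group holds 1 library, and no library could be left out. Depth limits the markers with few reads: Adgre1 rests on 52 and 53.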

Other observations

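Markers of antigen-presenting cells other than macrophages differed among themselves in direction and depth. Of the 4 genes on the Langerhans cell list 3 were tested, 1 higher, 1 lower and 1 within 2-fold, and none of these 3 is particular to Langerhans cells. Cd207, the langerin gene that defines Langerhans cells of the epidermis, had 7 reads in irradiated and 0 in non-irradiated skin and was below the level for testing. Epcam, which Langerhans cells share with epithelia, stood at 22.6 against 2.47 FPKM on 361 against 44 reads. Cd1d1, a lipid-presenting molecule also carried by other cells, was lower in irradiated skin with 5.38 against 22.4 FPKM and 111 against 514 reads. Its log2 ratio was -1.87, with an interval from -2.37 to -1.76. Itgae, an integrin chain also carried by T cells and named here with its value known, stood at 2.74 against 2.18 FPKM on 123 against 109 reads. Among the dendritic cell markers Cd83 was the single one tested, at 19 against 41 reads, and Flt3 had 8 reads against 0.

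Of 7 mast cell markers 2 were tested, and both were lower in irradiated skin: Cma1, a chymase, had 22 against 239 reads and Cpa3, a carboxypeptidase, 8 against 73. Of those below the level for testing, Ms4a2 had 6 against 24 reads, Tpsab1 5 against 7 and Kit 11 against 7, and the intervals of Tpsab1 and Kit included equality; these 3 are named after their values were seen. Of the 9 T and NK cell genes found, 0 reached the level for testing. Zap70 had 11 reads against 0 (lower bound of the interval 1.48) and Lck 8 against 0 (0.92). Nkg7 at 1 against 3 reads and Cd8a at 4 against 5 went the other way, with intervals that included equality. Zap70, Lck, Nkg7 and Cd8a are named after their values were seen. Of the 6 B and plasma cell genes 5 had no reads in either library. Among paralogs of the macrophage marker genes Aif1l stood at 1.89 against 2.02 FPKM, Adgre5 (listed as Cd97) at 3.71 against 3.41 FPKM and Pdgfra, a receptor kinase of fibroblasts, at 1.37 against 2.59 FPKM. Lyve1, carried by lymphatic endothelium and by some resident macrophages, stood at 2.76 against 4.22 FPKM on 100 against 170 reads, and the interval ran from -0.99 to -0.25. Of 3 tested adipocyte markers Fabp4, a fatty acid binding protein, was lower by 2-fold or more at 166 against 383 FPKM, while Lpl stood at 21.1 against 22.5 FPKM and Adipoq at 1.11 against 0.936 FPKM. The list summed to 189 against 407 FPKM, mostly Fabp4, and its median log2 ratio was -0.084. The blood list summed to 517 against 769 FPKM, with its 3 tested genes within 2-fold. Hba1, a haemoglobin chain, lay beyond 2-fold with the median of all genes set to 0 and with the trimmed mean.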
